A study of Homo sapiens with 8 samples.

Results

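The 69 probes described here, of 22184 on the array, had a higher signal in the TRAIL-resistant Jurkat clone TR1 than in the parental line (WT) and a lower signal again after TR1 was given SAHA at 1 µM. They were chosen from the measured signals. On log2 signals with quantile normalization, a member had a detection p below 0.01 on both untreated TR1 arrays, a mean at least 0.5 above WT in untreated TR1, and a mean at 1 µM SAHA at least 0.4 below untreated TR1. Both untreated TR1 arrays also lay above both WT arrays and both 1 µM arrays. Of 297 probes that met the clone conditions alone, 23.2% met the SAHA conditions too. Of all 22184 probes, 1076 met the SAHA conditions taken alone. The clone conditions and the SAHA conditions use the same untreated TR1 arrays. A reading that is high by chance on those arrays helps a probe meet either, and its part in the 23.2% was not tested. The annotation gave 1 gene symbol to 64 of the members, which stand for 61 genes, and left 5 members without a name.

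Jurkat is a human T cell acute leukaemia line, and the WT cells are labelled TRAIL sensitive. TR1 is a single resistant clone grown out of WT under TRAIL at 1000 ng/mL over 12 weeks, so a difference between TR1 and WT cannot be told apart from a difference between 1 clone and its parental population. The arrays cover TR1 without drug, TR1 with SAHA at 0.5 µM for 12 h, TR1 with SAHA at 1 µM for 12 h, and WT without drug, with 2 biological duplicates in each of the 4 groups. All TR1 groups carry the same selection history, and WT cells with SAHA are not analysed here.

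TRAIL, a cytokine related to tumour necrosis factor, binds the death receptors DR4 and DR5. The bound receptors gather the adaptor FADD and the initiator caspase-8 into a complex, and the FLIP protein encoded by CFLAR blocks caspase-8 there. SAHA (vorinostat) inhibits histone deacetylases, enzymes that take acetyl groups off histones and other proteins, and it is used against cutaneous T cell lymphoma. Genes both rise and fall when such an inhibitor is given to T cell lines.

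The array medians of the signal ran from 77.6 to 115, and 53.7% to 58.5% of probes had a detection p below 0.05 on an array. The dimmest array (77.6) was array B of untreated TR1 and the brightest (115) was array B of 1 µM SAHA, so some of the counts below are also given without this pair. T cell markers were present as the label says: 10 of the 11 T cell marker genes on the array were detected on all 8 arrays. The summed T cell marker signal was 36900 to 37200 in untreated TR1 and 32300 to 33900 in WT. At 0.5 µM it was 37500 to 38100, and at 1 µM 36700 to 37200. Such a sum follows its brightest probes most, and single T cell markers moved both ways. In log2, 1 µM against untreated TR1 gave -1.05 for CD3E and -0.91 for CD5, but 0.81 for LEF1 and 0.63 for GATA3. Untreated TR1 against WT gave -0.42 for CD5 and -0.02 for LCK, but 0.5 for CD2 and 0.82 for GATA3. The summed B cell marker signal was 540 to 564 in untreated TR1, 447 to 454 at 0.5 µM, 407 to 411 at 1 µM and 607 to 747 in WT. For monocyte, NK, erythroid, and epithelial and fibroblast markers the sums lay between 215 and 730 on every array, and their part in the results was not tested.

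Signals below are log2 values after background correction and quantile normalization (limma's neqc), where 1 unit is a 2-fold difference. Each group has 2 arrays, and every probe's change comes with the standard error (SE) of a limma fit over the 8 arrays. A probe is called when its Benjamini-Hochberg adjusted p over the 13407 tested probes is below 0.05. All 69 members were among the tested probes, as their detection in untreated TR1 ensured. The arrays with 0.5 µM SAHA are the only ones whose values the rule did not compare, though all 8 arrays were quantile-normalized together.

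On this scale the members stood above WT in untreated TR1 by a median of 0.89 (0.52 to 2.46), and below untreated TR1 at 1 µM SAHA by a median change of -0.79 (-2.23 to -0.42). The medians over all tested probes were -0.01 and -0.02. In bulk RNA, fewer cells with a transcript and less transcript per cell cannot be told apart. By limma, 64 members were called higher in TR1 than in WT, where 3.95% of tested probes were called higher and 3.75% lower. Likewise 68 were called lower at 1 µM than untreated, where 12.7% of tested probes were called lower and 12.7% higher. These counts follow from the choice of members and carry no information beyond it. In untreated TR1 the members' mean signals ran from 5.79 to 14.79. On all 8 arrays 63 members were detected, and 4 members were undetected on both WT arrays and 4 on both 1 µM arrays.

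Receptor and secreted protein genes are described first. TSHR, the thyroid-stimulating hormone receptor, had 3 probes, and all 3 were members. The TSHR probe ILMN_1746712 read 9.82 and 9.77 in untreated TR1, 8.92 and 8.90 at 0.5 µM, 8.17 and 8.11 at 1 µM, and 8.63 and 8.21 in WT. ILMN_1660639, a second TSHR probe, read 9.61 and 9.64 untreated, 9.26 and 9.09 at 0.5 µM, 8.31 and 8.21 at 1 µM, and 8.61 and 7.79 in WT. ILMN_1661143 gave 9.09 and 9.06, then 8.56 and 8.44, then 7.79 and 7.61, against 8.05 and 7.29 in WT. On each TSHR probe the untreated TR1 arrays were highest and the 0.5 µM arrays came between the untreated and the 1 µM arrays. The WT duplicates lay further apart than the TR1 duplicates. Untreated TR1 exceeded WT by 2.59-fold, 2.69-fold and 2.66-fold on the 3 TSHR probes.

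KRT1 encodes a type II keratin of the outer epidermis and VPREB1 part of the surrogate light chain of the pre-B cell receptor. The KRT1 probe read 9.41 and 9.50 in untreated TR1, 8.78 and 8.83 at 0.5 µM, 7.89 and 7.80 at 1 µM, and 8.28 and 7.59 in WT. VPREB1 read 8.67 and 8.91 untreated, 8.18 and 8.06 at 0.5 µM, 7.35 and 7.21 at 1 µM, and 6.88 and 7.74 in WT. Neither gene is a usual T cell product, and for both the 1 µM arrays fell within the range of the WT duplicates. CHI3L2, a chitinase-like secreted protein without enzyme activity, stood furthest above WT of all members: it read 13.10 and 12.92 in untreated TR1, 12.82 and 12.92 at 0.5 µM and 12.34 and 12.39 at 1 µM, against 10.73 and 10.37 in WT. All 6 TR1 arrays lay above both WT arrays for CHI3L2, and untreated TR1 exceeded WT by 5.50-fold. ADAMTS1, a secreted metalloprotease that cuts extracellular matrix proteoglycans, read 7.85 and 7.85 untreated, 7.67 and 7.65 at 0.5 µM, 7.12 and 7.42 at 1 µM, and 6.10 and 6.5 in WT. Its values at either dose stayed above both WT arrays. RETN, the secreted protein resistin, read 7.35 and 7.36 untreated, 6.15 and 6.04 at 0.5 µM, 5.81 and 5.94 at 1 µM, and 6.11 and 7.06 in WT.

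The members include transcription regulators. KLF2 is a zinc finger factor that keeps T cells quiescent and drives genes of T cell trafficking. It read 13.69 and 13.60 in untreated TR1, 12.91 and 12.89 at 0.5 µM, 12.74 and 12.69 at 1 µM, and 12.85 and 12.54 in WT. The 1 µM arrays lay within the range of the WT duplicates and the 0.5 µM arrays just above it, all below untreated TR1. HES1 is a basic helix-loop-helix repressor and a direct target of Notch signalling. It read 7.30 and 7.56 untreated, 6.22 and 6.44 at 0.5 µM, 5.94 and 5.94 at 1 µM, and 6.45 and 6.33 in WT. HES1 overlapped WT at 0.5 µM and lay below both WT arrays at 1 µM. CEBPE, a factor of granulocyte maturation, read 8.74 and 8.87 untreated, 8.60 and 8.52 at 0.5 µM, 7.86 and 7.94 at 1 µM, and 7.79 and 7.49 in WT.

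The stretches of 250 bases before the annotated start of HES1, KLF2 and TSHR are shown because HES1 and KLF2 are regulators, and TSHR a receptor, whose values are given above, and each has 1 start in the RefSeq table (GRCh38.p14). They run 5′ to 3′ on the plus strand, at chr3:194135898-194136147 for HES1, chr19:16324576-16324825 for KLF2 and chr14:80955371-80955620 for TSHR. Capitals mark matches on either strand to TGGGAA (the core bound by the Notch partner RBPJ), CCAAT (the CCAAT box) or GGGCGG (the GC box bound by Sp factors).
HES1: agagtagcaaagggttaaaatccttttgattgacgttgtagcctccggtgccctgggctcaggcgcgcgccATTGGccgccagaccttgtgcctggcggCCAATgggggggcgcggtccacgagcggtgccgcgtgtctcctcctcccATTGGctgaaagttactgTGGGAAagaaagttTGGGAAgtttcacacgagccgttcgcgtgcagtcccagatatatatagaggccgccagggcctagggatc
KLF2: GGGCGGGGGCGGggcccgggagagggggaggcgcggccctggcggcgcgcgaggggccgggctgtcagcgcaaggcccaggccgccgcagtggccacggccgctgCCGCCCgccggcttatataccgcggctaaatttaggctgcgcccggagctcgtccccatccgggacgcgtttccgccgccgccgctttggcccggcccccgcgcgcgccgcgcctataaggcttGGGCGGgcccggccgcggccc
TSHR: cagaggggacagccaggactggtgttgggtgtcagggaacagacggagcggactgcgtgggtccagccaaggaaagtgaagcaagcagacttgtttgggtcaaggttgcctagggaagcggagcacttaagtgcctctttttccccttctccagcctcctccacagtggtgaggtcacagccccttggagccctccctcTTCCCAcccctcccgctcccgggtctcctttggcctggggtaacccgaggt
The HES1 stretch holds the RBPJ core 84 and 70 bases before the start, as a pair on the same strand, and CCAAT 179, 151 and 102 bases before it. KLF2 holds the GC box at 250, 244, 145 and 21 bases before the start, and the first pair shares no letters. TSHR holds the RBPJ core on the opposite strand, shown as TTCCCA, 51 bases before the start.

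Promoters were found in the table for 46 of the 61 member genes, with 81 starts, and were set beside all 35116 starts. That wider set was not limited to genes tested on the array, whereas every member was tested. RBPJ cores stood in 25.9% of member starts and 20.8% of all starts, and the GC box in 51.9% and 42.6%. CCAAT stood in 24.7% of member starts and 32.0% of all starts, TATAAA in 7.41% and 10.7%, and the E-box CACGTG in 4.94% and 6.34%. For the ETS core CCGGAAG the shares were 7.41% and 8.52%, and for the RUNX core TGTGGT 12.3% and 11%. Each was searched on both strands. A gene with several starts counts more than once, and a match describes these letters only.

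Among the further members were surface proteins of cortical thymocytes. CD1A and CD1B encode molecules that present lipid antigens and mark immature thymocytes. CD1A read 11.34 and 11.42 in untreated TR1, 11.32 and 11.24 at 0.5 µM, 10.67 and 10.45 at 1 µM, and 10.59 and 10.91 in WT. The CD1B probe read 13.68 and 13.66 untreated, 13.36 and 13.30 at 0.5 µM, 12.44 and 12.36 at 1 µM, and 13.09 and 13.13 in WT. For CD1A the 0.5 µM arrays stayed beside the untreated ones, and for CD1B the 1 µM arrays lay below WT. CD1C, a further gene of the same cluster on chromosome 1, just missed the rule, with a mean 0.491 above WT on the scale of the rule. On the neqc scale CD1C read 9.20 and 9.29 untreated, 8.90 and 8.84 at 0.5 µM, 8.06 and 8.13 at 1 µM, and 8.45 and 8.95 in WT. In a list of RAG and pre-T cell receptor genes with their thymocyte markers, 7 of 14 probes were tested, and limma called 2 higher in TR1 than in WT and 0 lower. These were CD1A and CD1B, members whose calls here follow from the choice, and 3.95% of all tested probes were called higher. The other tested probes were not called: CD1C (0.55), CD1E (0.24), CD1D (0), RAG1 (-0.44) and DNTT (-0.09), the terminal transferase of antigen receptor rearrangement. RAG2, PTCRA, CD4, CD8A and CD8B were not detected on any array. At 1 µM limma called 4 of the 7 lower than untreated TR1 and 0 higher, where 12.7% of all tested probes were called lower. They were CD1A and CD1B, again by the choice, CD1C (-1.15, adjusted p = 0.00157) and DNTT (-0.33, adjusted p = 0.0411). RAG1 (0.12), CD1D (-0.3) and CD1E (-0.12) were not called. The median of the list was 0.24 for TR1 against WT and -0.33 for 1 µM against untreated TR1.

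PECAM1, an adhesion receptor of leukocytes and endothelium, read 9.64 and 9.52 in untreated TR1, 9.46 and 9.45 at 0.5 µM, 8.99 and 8.90 at 1 µM, and 9.07 and 8.94 in WT. Other immune members, named after their values were seen, were LAPTM5, a lysosomal protein that promotes loss of the T cell receptor, SLA, an adaptor that dampens T cell receptor signalling, and GIMAP7, a GTPase of lymphocytes. LAPTM5 read 11.53 and 11.73 in untreated TR1, 11.25 and 11.29 at 0.5 µM, 10.92 and 11.21 at 1 µM, and 10.63 and 10.80 in WT. Untreated TR1 exceeded WT by 1.44-fold for SLA and 1.62-fold for GIMAP7. NCR3, the NK cell receptor NKp30, exceeded WT by 1.93-fold in untreated TR1, and LAIR2, a secreted collagen receptor, by 1.96-fold. CD82 encodes a tetraspanin, and both of its probes were members: untreated TR1 exceeded WT by 1.65-fold on ILMN_1662973 and by 1.55-fold on ILMN_1656961. ITGA5, the alpha chain of a fibronectin receptor, read 9.45 and 9.50 untreated, 9.29 and 9.24 at 0.5 µM, 9.14 and 8.93 at 1 µM, and 8.40 and 8.99 in WT. It lies just inside the threshold for SAHA, at -0.4035 on the scale of the rule. By limma its change at 1 µM was -0.44 ± 0.18 and was not called (adjusted p = 0.106). In the list of cytoskeleton and adhesion genes, 16 of 21 probes were tested. Limma called 4 higher and 0 lower in TR1 than in WT, and 3 higher and 4 lower at 1 µM than untreated. The 4 higher in TR1 were ITGA5, ICAM2 (0.44), VIM (0.41) and 1 of 2 tested ITGB1 probes (0.47). The call of ITGA5 follows from its choice as a member. Of all tested probes, 3.95% were called higher and 3.75% lower in TR1 than in WT, and 12.7% higher and 12.7% lower at 1 µM. The list's median was 0.15 for TR1 against WT and -0.07 for 1 µM against untreated. VIM and both ITGB1 probes were called higher at 1 µM than untreated, whereas the integrin chains ITGAL (-0.95) and ITGB2 (-0.81) were called lower.

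Of the machinery of TRAIL itself, the set holds CFLAR. The CFLAR probe read 7.34 and 7.09 in untreated TR1, 7.0 and 6.74 at 0.5 µM, 6.59 and 6.33 at 1 µM, and 5.96 and 6.38 in WT. Untreated TR1 exceeded WT by 2.06-fold, and it stood 1.68-fold lower at 1 µM. The arrays of 0.5 µM lay between, and at 1 µM array B was within the range of the WT duplicates. In the list of TRAIL and death receptor genes, 8 of 12 probes were tested, and limma called 2 higher and 0 lower in TR1 than in WT: CFLAR, and TNFSF10, the gene of TRAIL, at 0.85 (adjusted p = 0.0233). At 1 µM it called TNFRSF10A, the gene of DR4, higher than untreated (adjusted p = 0.000104), TNFRSF10B, the gene of DR5, higher by 0.61 (adjusted p = 0.00825), and CFLAR lower. The calls of CFLAR follow from its choice as a member. At 0.5 µM limma called 1 of the list, TNFRSF10A, higher (adjusted p = 0.00547). TNFRSF10A was not well above background in untreated TR1 or in WT, so it was at least 1.87-fold higher at 1 µM and at least 1.19-fold higher at 0.5 µM than untreated. TNFRSF10A read 4.73 and 4.72 in untreated TR1, 5.47 and 5.37 at 0.5 µM, 6.11 and 6.04 at 1 µM, and 4.47 and 4.52 in WT. Of all tested probes, 3.95% were called higher and 3.75% lower in TR1 than in WT. Higher calls made up 4.44% at 0.5 µM, and at 1 µM 12.7% were higher and 12.7% lower. The list's median was 0.31 for TR1 against WT and -0.11 for 1 µM against untreated TR1. FADD, the receptor adaptor, read 10.17 to 10.29 in untreated TR1 and 10.16 to 10.26 in WT.

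Among cell cycle, signalling and scaffold genes, CCND3, the G1 cyclin D3, read 14.80 and 14.78 in untreated TR1, 14.39 and 14.47 at 0.5 µM, 14.33 and 14.18 at 1 µM, and 13.71 and 14.05 in WT. FGD3, an exchange factor of the family that activates Cdc42, read 10.11 and 10.02 untreated, 9.63 and 9.55 at 0.5 µM, 9.04 and 8.83 at 1 µM, and 8.04 and 8.23 in WT. The 4 groups of FGD3 did not overlap, and at 1 µM it was still above WT. AHNAK, a very large scaffold protein, exceeded WT by 2.74-fold in untreated TR1 and by 1.43-fold at 1 µM. FRMD4A, a FERM domain scaffold of cell polarity, exceeded WT by 3.65-fold untreated and by 1.51-fold at 1 µM, although 1 of its 2 WT arrays was not above background. EIF4G2, a translation initiation factor, read 13.48 and 13.50 untreated, 13.09 and 13.19 at 0.5 µM, 13.01 and 13.13 at 1 µM, and 13.03 and 12.67 in WT. C12orf57 exceeded WT by 1.91-fold in untreated TR1.

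The 0.5 µM SAHA arrays entered the choice only through the shared normalization. At this dose the members changed by a median of -0.43 against untreated TR1 (-1.45 to 0.04). The median over all tested probes was -0.01. Of the 69 members, 68 had a negative change, and 66 lay below untreated TR1 without overlap, as did 29.8% of all tested probes. Limma called 22 lower, or 31.9%, where 2.77% of tested probes were called lower. It called 0 higher, where 4.44% were. At an unadjusted p below 0.05 the counts were 48 lower and 0 higher, with no share of all tested probes counted at that threshold. The untreated TR1 arrays on the other side of this comparison were selected for a high signal, so their part in the counts was not tested. The number called was below 22 whichever array of untreated TR1 or of 0.5 µM was left out, and without the dimmest and brightest pair. Each of these fits leaves 1 array in a group, and why the number fell was not tested. The median change stayed between -0.50 and -0.40 in the fits that left out 1 array.

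Among the members called at 0.5 µM, ILMN_1651282 has no gene name. It read 7.05 and 7.21 in untreated TR1, 5.63 and 5.73 at 0.5 µM, 4.98 and 4.82 at 1 µM, and 6.10 and 6.03 in WT. It fell by 1.45 ± 0.11 (SE, limma adjusted p = 0.00061), and at 1 µM it was not well above background on either array. ILMN_1663068, also unnamed, read 5.82 and 6.07 untreated, 4.65 and 4.66 at 0.5 µM, 4.59 and 4.71 at 1 µM, and 4.61 and 4.72 in WT. It was well above background in untreated TR1 alone, so it was at least 1.79-fold lower at 0.5 µM (adjusted p = 0.00127). RETN fell by 1.26 ± 0.25 at 0.5 µM (adjusted p = 0.0244) and HES1 by 1.10 ± 0.13 (adjusted p = 0.00299). MINAR1, a membrane protein that binds NOTCH2, fell by 0.98 ± 0.14 (adjusted p = 0.00634). It read 8.36 and 8.41 untreated, 7.30 and 7.51 at 0.5 µM, 6.55 and 6.90 at 1 µM, and 7.63 and 7.47 in WT. KLF2 fell by 0.75 ± 0.12 (adjusted p = 0.00999), 1 of the 3 TSHR probes by 0.88 ± 0.14 (ILMN_1746712, adjusted p = 0.00888), FRMD4A by 0.77 ± 0.15 (adjusted p = 0.0221) and FGD3 by 0.48 ± 0.12 (adjusted p = 0.0483). C12orf57 was also called lower (-0.43, adjusted p = 0.0278), as was ILMN_1769891 (-0.63, adjusted p = 0.0173).

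Further members called lower at 0.5 µM, named after their values were seen, include CBFA2T3, a corepressor of the ETO family in blood cells (-0.73, adjusted p = 0.00681), and DDX54, an RNA helicase (-0.70, adjusted p = 0.029). HCST, the DAP10 adaptor of the NKG2D receptor (-0.61, adjusted p = 0.0305), CCL1, a chemokine of activated T cells (-0.79, adjusted p = 0.0291), and CTTN, the actin-binding protein cortactin (-0.51, adjusted p = 0.0212), were also called. CYP27B1, which makes active vitamin D, changed by -0.67 (adjusted p = 0.0397). VGF, a precursor of neuroendocrine peptides, changed by -0.79 (adjusted p = 0.00859) and read 7.62 and 7.61 in untreated TR1, 6.74 and 6.91 at 0.5 µM, 6.92 and 7.16 at 1 µM, and 6.78 and 6.93 in WT. Its lowest TR1 arrays were thus those of 0.5 µM. CD93, a lectin-like receptor of endothelium and early blood cells, fell by 0.95 ± 0.10 (adjusted p = 0.00186). It read 6.33 and 6.35 untreated, 5.38 and 5.40 at 0.5 µM, 4.81 and 4.91 at 1 µM, and 4.89 and 4.98 in WT. CD93 was not well above background at 1 µM or in WT, so untreated TR1 was at least 2.38-fold higher than WT and at least 2.36-fold higher than 1 µM.

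Some named members were not called at 0.5 µM. KRT1 missed the threshold (-0.65 ± 0.20, adjusted p = 0.0866), as did VPREB1 (-0.67 ± 0.24, adjusted p = 0.137) and CFLAR (-0.34 ± 0.18, adjusted p = 0.278). The 3 smallest responses were those of EPSTI1 (0.04 ± 0.13, adjusted p = 0.882), CD1A (-0.10 ± 0.13, adjusted p = 0.725) and PECAM1 (-0.12 ± 0.10, adjusted p = 0.512). EPSTI1, an interferon-inducible gene, read 9.84 and 9.74 in untreated TR1, 9.79 and 9.88 at 0.5 µM, 9.12 and 9.11 at 1 µM, and 8.37 and 8.02 in WT. For EPSTI1 and CD1A the 0.5 µM arrays were level with the untreated ones and the 1 µM arrays were lower than both.

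The mean at 0.5 µM lay between the untreated and the 1 µM mean for 66 of the 69 members. A median of 51.3% of the change seen at 1 µM was present at 0.5 µM (-6.28% to 137%), and untreated TR1 and 1 µM are both groups the rule used. KLF2 had 80.4% of its change at 0.5 µM, HES1 73.5%, CFLAR 45.5%, KRT1 40.3%, CD1B 26.8%, CHI3L2 21.8% and CD1A 11.7%.

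Between the doses, 1 µM against 0.5 µM, the members changed by a median of -0.38 (-0.96 to 0.21), with 68 negative, and the median over all tested probes was 0.00. Without overlap, 63 lay lower at 1 µM, as did 26.2% of all tested probes, and the 1 µM arrays were selected for a low signal. Limma called 4 members lower, or 5.80%, where 0.0895% of tested probes were called lower, and 0 higher, where 0.231% were. At an unadjusted p below 0.05 the counts were 43 lower and 0 higher, again with no share of all tested probes counted at that threshold. The 4 were ILMN_1659257 (-0.67, adjusted p = 0.0335), ILMN_1651282 (at least 1.5-fold lower, adjusted p = 0.0373), CD1B (-0.93 ± 0.09, adjusted p = 0.0114) and GTF2IRD2 (-0.78 ± 0.12, adjusted p = 0.0455). The count was 1 without either array of untreated TR1, 0 without any 1 array of 0.5 or 1 µM, 0 without the dimmest and brightest pair, 10 without WT array A and 11 without WT array B. With the authors' processed values it was 15.

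GTF2IRD2 is one of the family of general transcription factor II-I genes, and it has a near-identical copy on the same chromosome that the probe may also bind. It read 9.74 and 9.98 in untreated TR1, 8.94 and 8.86 at 0.5 µM, 8.04 and 8.20 at 1 µM, and 9.22 and 9.29 in WT. Each dose lay below the one before it, and both doses lay below WT without overlap.

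Against WT the members stood higher by a median of 0.45 at 0.5 µM (-0.49 to 2.32) and 0.06 at 1 µM (-1.16 to 1.81). The medians over all tested probes were -0.02 and -0.03. At 0.5 µM limma called 35 members higher than WT, or 50.7%, where 11.5% of tested probes were, and 1, ILMN_1651282, lower, where 10.7% were. The count higher was 13 without the 0.5 µM array A and 14 without its array B. The count lower was 0 without either array of untreated TR1 or of 0.5 µM, and 0 without WT array B. At 1 µM it called 9 higher, or 13%, where 17.1% of tested probes were, and 7 lower, or 10.1%, where 17.3% were. Both shares at 1 µM were below those of all tested probes, and the other 53 members were not called, which does not show that they equal WT. WT arrays were selected for a low signal in both comparisons, and those of 1 µM in the second. Without the dimmest and brightest pair the counts at 1 µM were 5 higher and 4 lower.

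The 9 members still above WT at 1 µM were led by CHI3L2 (1.81 ± 0.14, adjusted p = 8.91e-05), ADAMTS1 (0.97 ± 0.15, adjusted p = 0.00198) and EPSTI1 (0.92 ± 0.13, adjusted p = 0.00119). FGD3 (0.80, adjusted p = 0.00148), FRMD4A (0.59, adjusted p = 0.0172) and AHNAK (0.52, adjusted p = 0.0144) were among them. Those called below WT included GTF2IRD2 (-1.14 ± 0.12, adjusted p = 0.000312), MINAR1 (-0.82 ± 0.14, adjusted p = 0.00293), ILMN_1651282 (at least 1.95-fold lower, adjusted p = 0.00022), CD1B (-0.71 ± 0.09, adjusted p = 0.000896) and HES1 (-0.45 ± 0.13, adjusted p = 0.0259). KLF2 (0.02 ± 0.12), KRT1 (-0.08 ± 0.20) and CFLAR (0.29 ± 0.18) were not called. Of the gap between TR1 and WT, 1 µM closed a median of 94.0%: over 100% for 29 members, 50% to 100% for 37 and under 50% for 3. Both changes behind this share are those the rule selected on, with the untreated TR1 arrays in each, so the choice of members shapes it and it is a description. CHI3L2 had the smallest share (26.3%) and GTF2IRD2 the largest (289%).

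HES1 belongs to the list of T cell transcription factors, of which 18 of 19 probes were tested. Limma called 6 higher and 2 lower in TR1 than in WT, 3 higher and 2 lower at 0.5 µM than untreated, and 5 higher and 4 lower at 1 µM than untreated. HES1 is among those called higher in TR1 and lower at 1 µM, which follows from its choice as a member. Of all tested probes, 3.95% were called higher and 3.75% lower in TR1 than in WT. These shares were 4.44% and 2.77% at 0.5 µM, and 12.7% and 12.7% at 1 µM. The list's median was 0.21 for TR1 against WT, 0.06 for 0.5 µM against untreated and 0.05 for 1 µM against untreated. The 2 lower at 0.5 µM were HES1 and NOTCH1, the receptor whose cleaved form drives HES1 and which is often mutated in T cell leukaemia. NOTCH1 read 11.13 and 11.23 in untreated TR1, 10.23 and 10.33 at 0.5 µM, 9.75 and 9.47 at 1 µM, and 10.85 and 10.93 in WT. It was not called in TR1 against WT (0.29, adjusted p = 0.189), and was called lower at 0.5 µM (-0.90, adjusted p = 0.00507) and at 1 µM (-1.57, adjusted p = 0.000144). NOTCH3 was not called in any of these comparisons. GATA3, a factor of T cell commitment, moved otherwise than the members: it was called higher in TR1 than in WT (0.82, adjusted p = 0.0023) and higher again at 1 µM than untreated (0.63, adjusted p = 0.00262). The RUNX1 probe ILMN_1801504, not a member, was called higher in TR1 than in WT (1.15, adjusted p = 0.00118) and lower at 1 µM (-0.37, adjusted p = 0.0497). RUNX1 probe ILMN_1654941 was called higher at 1 µM (0.59, adjusted p = 0.00684), and ILMN_1730797 was called in neither.

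Other probes on the array name the same genes and were not chosen. There were 17 for 12 member genes, and 11 of them, for 9 genes, were tested. In TR1 against WT, 9 of the 11 had a positive change and limma called 1 higher and 0 lower. That was the second CHI3L2 probe, ILMN_1685045, at 2.47 ± 0.16 (adjusted p = 0.000153). At 1 µM against untreated TR1, 10 had a negative change and 4 were called lower, for GTF2IRD2 (-1.68), ARHGAP27 (-1.39), LST1 (-0.66) and OPN3 (-0.66). None (0) was called in both comparisons. For the second CHI3L2 probe the change at 1 µM was -0.23 ± 0.16 (adjusted p = 0.322). The second GTF2IRD2 probe, ILMN_1760011, read 8.50 and 8.68 in untreated TR1, 7.73 and 7.75 at 0.5 µM, 7.02 and 6.81 at 1 µM, and 8.21 and 8.06 in WT. The second tested AHNAK probe stood at 0.57 (adjusted p = 0.0594) against WT and -0.42 (adjusted p = 0.0783) at 1 µM. For BPTF, a chromatin remodeller subunit whose member probe stood at 0.86 and -0.63, the 2 other probes were near 0 in both comparisons. The tested probe that rose at 1 µM was ILMN_1674034, for the member gene MACROH2A1 (0.49 ± 0.18, adjusted p = 0.0843). It stood at 0.59 in untreated TR1 against WT (adjusted p = 0.0907) and was called above WT at 1 µM (1.09, adjusted p = 0.0028). ILMN_1746171, also for MACROH2A1, stood at 0.16 against WT and -0.16 at 1 µM. Probes of 1 gene can read different transcripts, and which these read is not given in the files used here.

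At the edge of the rule, and on its scale, COX19 (0.5013) and CCL1 (0.50316) were just inside the threshold for TR1 against WT, and CALML4 (0.49848) and CD1C (0.49117) just outside. For 1 µM against untreated TR1, ITGA5 (-0.4035) and ZNF689 (-0.41245) were just inside, and NRROS (-0.39998) and MDK (-0.39992) just outside. CPNE7 met all conditions but detection, with a p of 0.0217 on 1 untreated TR1 array. The member genes LST1 and NCR3 lie next to each other on chromosome 6, with 0 protein-coding genes between them.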

How the data were processed

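RNA of 8 samples (4 groups of 2) was read on Illumina HumanRef-8 BeadChips, per the labels' protocols. The authors deposited a table of probe intensity values on a linear scale, named as not normalized, with a detection p-value beside each, per the file headers. Their second deposited table holds processed intensity values, which matched the quantile-normalized signals of the first table without background correction. The submitters' processing notes name limma; its version and the annotation and extraction steps are not stated in the labels, headers or notes. Signal columns name a group and a letter, so they were assigned to groups, and 0 columns were left over.

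Members were found by the stated rule on log2 signals. For all tests, neqc in limma 3.58.1 (R 4.3.3) corrected the background from the detection p-values with an offset of 16, quantile-normalized and took log2. Probes with a detection p below 0.05 on at least 2 arrays (13407) were kept. One mean per group was fitted with lmFit and eBayes over the 8 arrays (4 residual and 4.27 prior degrees of freedom), with Benjamini-Hochberg adjustment. The median SE of a change was 0.126, and the number of arrays limits the precision. The p-values measure only the spread within duplicates, whose separation is not described further. The procedure was tested on simulated data. Where a probe was not well above background (detection p of 0.05 or more) on both arrays of a group, "at least" sets the bright group's mean against, per array, the higher of the lowest signal detected there and the probe's own. Slide and scan were not recorded in the files used here, so no batch was tested.

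Symbols came from the platform annotation (19715 probes with 1 symbol, 2469 with none), of which 19695 matched a RefSeq gene ID. The members and lists were chosen with earlier results of these data known. Of 27 gene lists, 4 hold a member and are described. Their counts stand beside the shares called over all tested probes, given above for each comparison. Named members were the 12 with the largest smaller step, the 5 brightest, the 5 lowest and 3 highest changes at 0.5 µM, the 3 called lowest and highest against WT at 1 µM, list members, genes with several member probes and probes beside a threshold; other members named so in the text, NOTCH1, GATA3, TNFRSF10A and other list genes or second probes that are not members were chosen after their values were seen. Alternatives were the background correction and offset, normalization, filter, variance model, array subsets, replicate blocks, the authors' values and the rule's thresholds.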

Additional observations from a re-analysis of the deposited data

How the results depend on the processing

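With 2 arrays a group, counts of calls moved far more than the members' median changes, which stayed on the same side under every alternative run. Of 0.5 µM against untreated TR1, 22 members were called lower; the count was 35 with the authors' processed values and with no background correction, 34 with an offset of 50, 36 with a variance trend and robust variances, 1 without the dimmest and brightest pair of arrays (an alternative chosen after seeing the data) and 5 to 29 when 1 array was left out. Of 1 µM against 0.5 µM, 4 were called lower; the count was 15 with the authors' values and with no background correction, 14 with the offset of 50, 19 with the variance trend, 0 with only the 4 arrays compared, 0 without the dimmest and brightest pair and 0 to 11 when 1 array was left out. At 1 µM against WT, the 9 called higher became 14 with the authors' values, with no background correction and with the variance trend, 5 without the dimmest and brightest pair and 7 to 12 when 1 array was left out; the 7 called lower became 4 and 5 to 9. At 0.5 µM against WT, the 35 called higher became 13 to 33 when 1 array was left out, and the 1 called lower became 0 with median scaling, with only the 4 arrays compared and without the dimmest and brightest pair, and 0 to 1 when 1 array was left out. The rule found 129 probes on the neqc scale, 40 with thresholds of 0.6 and -0.5, 133 with 0.4 and -0.3, and 67 to 87 when 1 array was left out. The cause of these shifts was not tested. Over all named members and alternatives together, 43 tests of 0.5 µM against untreated TR1 lost a call and 43 gained one; the counts were 37 and 72 for 1 µM against 0.5 µM, 12 and 26 for 1 µM against WT, and 57 and 19 for 0.5 µM against WT, with 0 reversals.

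The labels do not say that a replicate number marks a shared culture or day, and with 2 numbers the data cannot settle it. Deviations of samples with the same number correlated at 0.229 to 0.322 among the TR1 groups and at 0.0919 to 0.171 between TR1 groups and WT. With the replicate number as a block on the authors' values, 45 members were lower at 0.5 µM than untreated (35 without the block), 25 lower at 1 µM than at 0.5 µM (15 without it), and 15 higher at 1 µM than in WT (14 without it). With the array letter as a replicate block, 26 were lower at 0.5 µM than untreated and 2 lower at 0.5 µM than in WT.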
